A study of Mus musculus with 48 samples.

Results

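The S phase and DNA replication genes described here are 40 genes whose transcripts are known to accumulate as cells enter and pass through DNA synthesis. They were taken by symbol, in a choice made with earlier results of these data known. All 40 were in the deposited table of 24062 genes. They were followed in 46 of 48 single mouse fetal liver cells sequenced at embryonic day 14.5, all of 1 group labelled BFU-E. BFU-E, the erythroid burst-forming unit, is an early progenitor of red blood cells. The cells had been depleted of a set of lineage markers that included Ter119, Sca-1, CD16/CD32, CD41 and CD34, selected for c-Kit and sorted for the lowest 10% of CD71, with no treatment named for them. The 2 other cells held 9739.7 and 8037.5 CPM of C1qb, a complement gene of macrophages, and were left out because the limit was 1000 CPM. CPM values are read counts brought to the same library size in every cell.

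Neither an animal, a litter, a chip nor a batch is named for any cell, and the table's columns cannot be tied to single sample titles. The 46 cells are therefore 1 sample, no test over samples is possible, and every relation below is a description of these cells without a p-value. The total count of a cell lay between 246007 and 3211186, with a median of 1915270.5, and 5180 to 7935 genes were detected per cell. No 2 cells held identical counts. The label names 1 cell type, but the cells were mixed in lineage transcripts. Gata1, the erythroid master regulator, reached 10 CPM in 28 of 46 cells, and Mpo, the myeloperoxidase of neutrophil and monocyte precursors, reached 1000 CPM in 18. All 10 erythroid marker genes examined were read in at least 10 cells, as were 13 of 14 neutrophil and monocyte markers. So were 6 of 8 stem and early progenitor, 6 of 9 macrophage and 5 of 7 megakaryocyte markers. Of mast cell, lymphoid, hepatoblast and endothelial or stromal markers, 1, 0, 2 and 1 were. These counts take any read and do not give a level. Summed markers had medians over cells of 1682.7 CPM for erythroid, 1107.0 for stem and early progenitor and 447 for neutrophil and monocyte genes. The medians were 92.48 CPM for megakaryocyte and 2.584 for macrophage genes. Of the 24062 genes, 8482 were read in at least 10 cells with a mean of 5 CPM or more.

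DNA replication starts where the Mcm proteins are loaded on origins as an inactive ring, which Cdc45 and the GINS complex turn into the moving helicase. Behind it, primase and the DNA polymerases copy both strands around the sliding clamp Pcna, while ribonucleotide reductase and thymidylate synthase supply the building blocks and histone chaperones rebuild the chromatin. Many of these genes are switched on together by E2F transcription factors at the entry into S phase. Fetal liver erythroid progenitors are known to divide fast.

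Nearly every replication gene was read in most of the cells. Of the 40 genes, 12 had a read in all 46 cells (exact Clopper-Pearson interval 92.29 to 100%, at 95% confidence and for counting error only) and 32 in at least 40 cells. In 50% of the cells or more, 34 reached 10 CPM. The shares of all genes at these same limits are not given here, so no trait particular to the set is read from these counts. All 40 met the minimum of 10 cells with a read and 5 CPM on average, as did 8482 genes of the table. Levels between genes are compared below as CPM per kilobase of the principal transcript, and levels of 1 gene between cells as CPM.

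**Figure D1:**
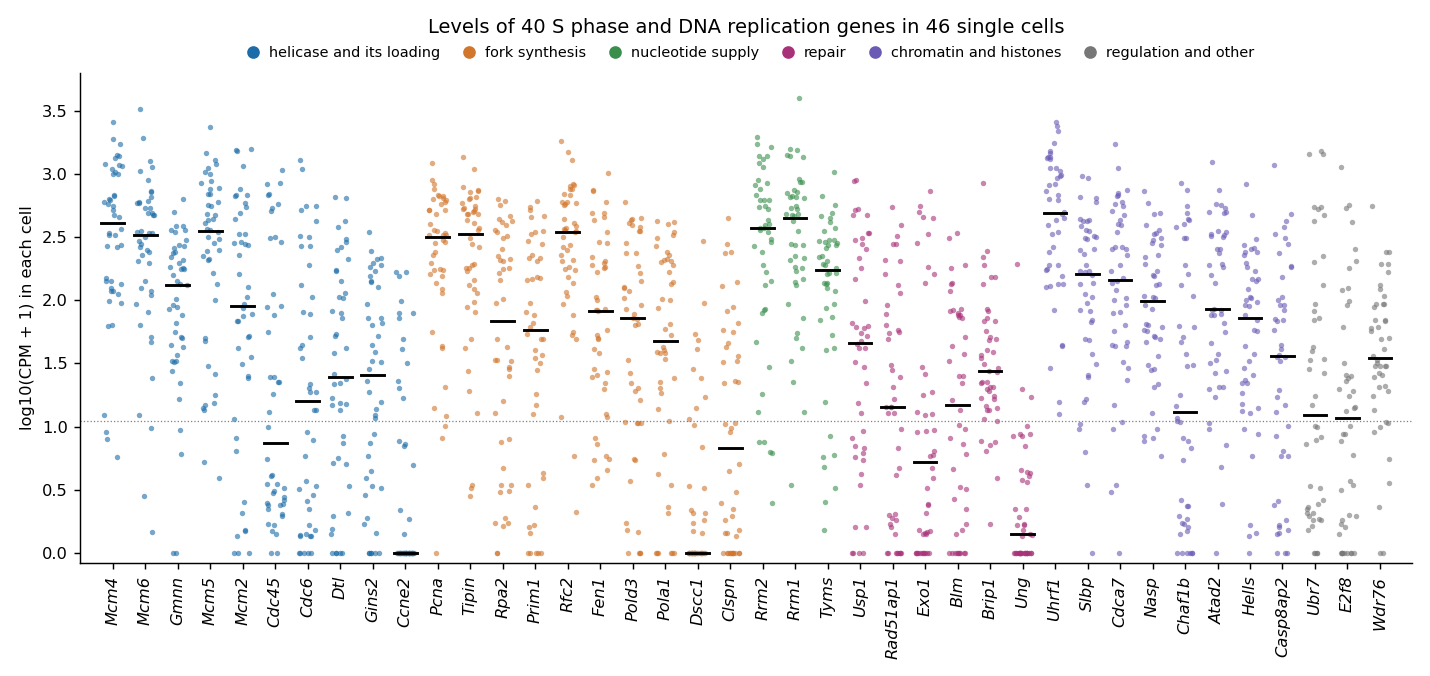
Levels of the 40 genes in 46 cells, with 1 point a cell on a log10(CPM + 1) axis, genes grouped and coloured by role and ordered within a role by mean level per kilobase, black bars at the median and a dotted line at 10 CPM. Mcm4, Mcm5, Mcm6, Pcna, Tipin, Rfc2, Rrm1, Rrm2 and Uhrf1 have their bars between 313.5 and 488.8 CPM. Those of Ccne2 and Dscc1 lie at 0.

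The Mcm helicase subunits and Gmnn were the most abundant of the genes for loading and firing of origins. Mcm4 (GRCm38 chromosome 16, 15623897 to 15637400, minus strand), 1 subunit of the helicase ring, had 4.727 CPM in the lowest cell, a median of 410.2 and 2579.9 in the highest. Mcm6 (chromosome 1, 128331590 to 128359664, minus strand), its neighbour in the ring, ran from 0.4727 CPM through a median of 326.9 to 3271.3. Both were read in all 46 cells, and cells differed widely in each. Per kilobase, Mcm4 averaged 165.3 ± 162.5 CPM and Mcm6 160.9 ± 195.9 CPM (SD over 46 cells), with Gmnn at 142.7, Mcm5 at 140.1 and Mcm2 at 89.05. The SD over cells was about as large as each mean, so the order of these 5 neighbours is not resolved. Gmnn encodes geminin, which blocks renewed loading of origins.

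Genes that act at single steps of firing were patchier. Cdc45, which joins the ring to start the helicase, was read in 44 cells but reached 10 CPM in 22. Its median was 6.718 CPM and its highest cell 1078.1 CPM. Cdc6, a loader of the ring, had a median of 15.2 CPM and a highest value of 1279.6. Dtl, the substrate receptor of a ubiquitin ligase that removes loading factors in S phase, had a median of 23.88 CPM. The lowest of the group per kilobase were Gins2, a GINS subunit, at 16.84 ± 21.72 CPM, and Ccne2, cyclin E2, at 7.344 ± 14.89 CPM. Gins2 ran from 0 through a median of 24.59 to 343.8 CPM. Ccne2 was read in 20 cells (interval 28.93 to 58.89%), with a median of 0 and a highest value of 167.4 CPM. Gins2 shares 2758 bp of exon with Gse1 on the other strand, and Ccne2 609 bp with Ints8. The library kit is not described as keeping the strand, so reads in the shared exon cannot be assigned by strand. Whether such reads were counted or left out is not given. The levels per kilobase of Gins2 and Ccne2, and their places in the role, are uncertain to that extent.

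At the fork, the sliding clamp and a fork protection factor led. Pcna (chromosome 2, 132249162 to 132253314, minus strand), the clamp that holds the polymerases on DNA, had 0 CPM in the lowest cell, a median of 313.5 and 1215.3 in the highest. Tipin, which with Timeless keeps helicase and polymerase coupled, ran from 1.813 through 334.9 to 1358.2 CPM. They averaged 232.3 ± 185.4 and 198.3 ± 165.9 CPM per kilobase. Rpa2, of the complex that coats single-stranded DNA, followed at 90.73 CPM per kilobase, and Prim1, the catalytic primase subunit, at 87.8. Rfc2, of the loader that opens the clamp, stood at 84.3 CPM per kilobase, but shares 952 bp of exon with Lat2. Fen1, the flap nuclease that trims lagging strand fragments, was at 75.5 CPM per kilobase, Pold3, an accessory subunit of polymerase delta, at 44.11, and Pola1, which starts DNA chains with primase, at 21.22.

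The lowest of the fork genes per kilobase were Dscc1 and Clspn. Dscc1, of an alternative clamp loader that aids sister chromatid cohesion, was read in 21 cells, with a median of 0 and a highest value of 292 CPM. Clspn, the checkpoint mediator claspin, ran from 0 through 6.034 to 445.3 CPM in 34 cells with a read. Per kilobase they averaged 10.59 ± 34.52 and 9.133 ± 17.81 CPM, values whose spread exceeds their difference.

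Promoters of some helicase and fork genes carry letters of the E2F site. A promoter window from RefSeq on GRCm38.p6, 250 bases before to 50 after the start, was matched for 30 of the 40 genes, and was searched on both strands for TTTCCCGC, TTTGGCGC and, for the unrelated CCAAT box, CCAAT. Neither E2F string contains CCAAT or its reverse complement. The following stretches of 40 bases, with the E2F match in capitals, are those of the 5 helicase and fork genes with a single match. They are given on the gene's own strand.
Mcm5, chr8:75109344-75109383, plus strand: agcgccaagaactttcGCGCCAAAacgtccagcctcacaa
Cdc6, chr11:98907997-98908036, plus strand: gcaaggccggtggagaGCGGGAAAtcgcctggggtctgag
Dtl, chr1:191575529-191575568, minus strand: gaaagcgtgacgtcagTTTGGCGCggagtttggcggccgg
Pola1, chrX:93632270-93632309, minus strand: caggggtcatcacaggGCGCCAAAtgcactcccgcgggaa
Pold3, chr7:100121462-100121501, minus strand: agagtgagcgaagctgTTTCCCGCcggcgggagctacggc

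Mcm6 had 2 E2F matches, and its window is shown whole because both lie in it beside 2 CCAAT boxes, all in capitals.
Mcm6, chr1:128359656-128359955, minus strand: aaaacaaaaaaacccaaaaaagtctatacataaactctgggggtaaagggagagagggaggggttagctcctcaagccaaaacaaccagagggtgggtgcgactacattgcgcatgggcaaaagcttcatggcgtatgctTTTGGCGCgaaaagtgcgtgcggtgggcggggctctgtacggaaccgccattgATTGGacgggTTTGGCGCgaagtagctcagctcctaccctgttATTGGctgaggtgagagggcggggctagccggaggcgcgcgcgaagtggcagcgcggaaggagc

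The 30 replication genes with a promoter had 33 windows, and for 26 of these the bases just past the start lay in a GENCODE transcript. Counted by gene, an E2F match stood in 10 of the 30 (33.3%). It stood in 263 of 6514 tested genes with a promoter (4.04%) and in 486 of all 27025 genes with a promoter (1.8%). Among the 51 of 61 other replication genes with a promoter it stood in 15 (29.4%), and among 31 such G2/M genes in 0. CCAAT stood in 21 of the 30 replication genes (70.0%), against 43.7% of tested genes and 41.1% of all genes with a promoter. It stood in 54.9% of the other replication genes and 77.4% of the G2/M genes with a promoter. A match is a description of letters and not a measured binding site. For the 10 genes with an E2F match the median rank correlation with the summed level of the other 39 genes was 0.21 (0.02 to 0.41), beside 0.27 (-0.39 to 0.63) for the 20 genes without a match.

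Both subunits of ribonucleotide reductase were among the most abundant genes of the set. Rrm2 (chromosome 12, 24708241 to 24714146, plus strand), the small subunit, whose amount is known to limit the enzyme in the cell cycle, had 1.478 CPM in the lowest cell, a median of 372.4 and 1967.3 in the highest. Rrm1 (chromosome 7, 102441695 to 102469771, plus strand), the large subunit, ran from 2.432 through 443.9 to 3991.7 CPM. All 46 cells held reads of both. Per kilobase Rrm2 averaged 238 ± 234.9 CPM and Rrm1 140.1 ± 168.1 CPM. Tyms, thymidylate synthase, averaged 68.06 ± 64.68 CPM per kilobase, with 0.5278, 172.1 and 1041.0 CPM as lowest, median and highest. The table also lists a pseudogene of Tyms, with which reads could be shared.

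The windows of the 2 reductase genes are shown because the genes had opposite relations to the rest of the set, described further on. Capitals mark CCAAT, on either strand. Neither window held an E2F match to these letters.
Rrm2, chr12:24708004-24708303, plus strand: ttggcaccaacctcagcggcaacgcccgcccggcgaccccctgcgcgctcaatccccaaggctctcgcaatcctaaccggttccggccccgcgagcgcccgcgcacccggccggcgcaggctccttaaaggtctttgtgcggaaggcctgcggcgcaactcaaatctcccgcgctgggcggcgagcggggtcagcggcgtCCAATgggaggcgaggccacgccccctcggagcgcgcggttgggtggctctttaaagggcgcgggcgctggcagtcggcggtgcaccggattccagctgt
Rrm1, chr7:102441445-102441744, plus strand: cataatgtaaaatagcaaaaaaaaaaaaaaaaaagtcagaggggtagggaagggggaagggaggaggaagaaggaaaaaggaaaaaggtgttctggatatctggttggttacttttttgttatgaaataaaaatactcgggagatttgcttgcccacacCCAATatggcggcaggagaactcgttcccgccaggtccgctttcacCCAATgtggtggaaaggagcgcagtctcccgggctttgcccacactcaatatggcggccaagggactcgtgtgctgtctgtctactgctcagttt

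Repair genes were mostly low. Usp1, the deubiquitinase of Pcna and Fancd2, had 0, 45.1 and 886.6 CPM as lowest, median and highest. Rad51ap1, a factor of DNA break repair, had 0, 13.3 and 550.5 CPM. These 2 led the role with 41.83 ± 61.94 and 38.14 ± 64.32 CPM per kilobase. Exo1, a DNA end nuclease, was read in 35 cells, but its median was 4.279 CPM and its highest value 736.4. Blm (chromosome 7, 80454733 to 80535119, minus strand), the Bloom helicase, ran from 0 through 13.86 to 339.6 CPM in 37 cells with a read. Brip1, a helicase that partners Brca1, was read in all 46 cells, though at 26.34 CPM in the median cell and 9.617 ± 18.97 CPM per kilobase. Ung, which removes uracil from DNA, was the lowest of all 40 at 3.038 ± 13.22 CPM per kilobase. It was read in 25 cells (interval 39.01 to 69.1%) and reached 10 CPM in 3, so its ranks rest on few reads.

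Chromatin genes spanned from the broadest to patchy. Uhrf1 (chromosome 17, 56303321 to 56323486, plus strand), which brings the maintenance methyltransferase to new DNA, was the only one of the 40 genes at 10 CPM or more in every cell. It had 11.61 CPM in the lowest cell, a median of 488.8 and 2596.9 in the highest, and averaged 199 ± 184.9 CPM per kilobase. Slbp, which binds the stem-loop of histone mRNAs, had 0, 162 and 959.1 CPM, and 120.5 ± 123.7 CPM per kilobase. Cdca7, the activator of the remodeler Hells, stood at 116.3 CPM per kilobase, and the histone chaperones Nasp and Chaf1b at 76.48 and 66.8. Chaf1b reached 10 CPM in 25 cells only. Hells ran from 0 through 71.88 to 830.5 CPM and Casp8ap2, a factor of histone mRNA processing, from 0 through 35.38 to 1184.8 CPM. They were lowest of the role at 19.82 ± 25.52 and 16.63 ± 30 CPM per kilobase, with Atad2, a bromodomain ATPase, at 36.89.

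The remaining 3 genes were each high in few cells. Ubr7, known in human cells as a histone ubiquitin ligase, had 0, 11.55 and 1516.8 CPM as lowest, median and highest, and shares 212 bp of exon with Gm20604. E2f8, an atypical E2F that represses targets late in S phase, had 0, 10.72 and 1126.3 CPM. Wdr76, a WD repeat protein, had 0, 33.65 and 553.6 CPM. Per kilobase they averaged 53.62 ± 115.6, 23.8 ± 55.52 and 16.96 ± 22.96 CPM.

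Single cells differed in how much of the set they held. Each cell had reads of 29 to 40 of the genes, with a median of 37, and 16 to 36 genes at 10 CPM or more, with a median of 29. The summed level of the 40 genes was 3217.0 CPM in the lowest cell, 7535.8 in the median cell and 18143.9 in the highest, a 5.64-fold range with a mean of 8434.6 ± 3647.9 CPM (SD over 46 cells). No cell was without the set, and the values filled the range without a labelled boundary. The cell of the lowest sum was also the cell of the lowest total count, 246007. Across cells the summed level had a Spearman rank correlation (rho) of 0.10 with total count and -0.17 with genes detected, while the number of genes at 10 CPM had 0.34 and 0.36.

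The genes that made up the sum differed from cell to cell. As highest of the 40, 12 different genes appeared, with Uhrf1 in 10 cells, Rrm1 in 8, Mcm4 in 7 and Mcm5 in 5. The 3 highest genes held 19.49 to 85.19% of the sum, with a median of 37.23%. The top cell, at 18143.9 CPM, held 35 genes at 10 CPM and was led by Mcm4, and the next, at 16067.2 CPM, held 33 and was led by Uhrf1.

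Levels of the replication genes went together loosely across cells. Among the 780 pairs of genes the median rho was 0.12, and 583 pairs (74.74%) were above 0. At a rho of 0.4 or more stood 20 pairs (2.564%), against 0.582% of all pairs of the 8482 genes tested, whose median was 0.01. At -0.4 or less stood 1 pair (0.1282%), against 0.303%. The points of a pair share the cell's library and depth. With all 48 cells, 34 pairs reached 0.4.

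**Figure D2:**
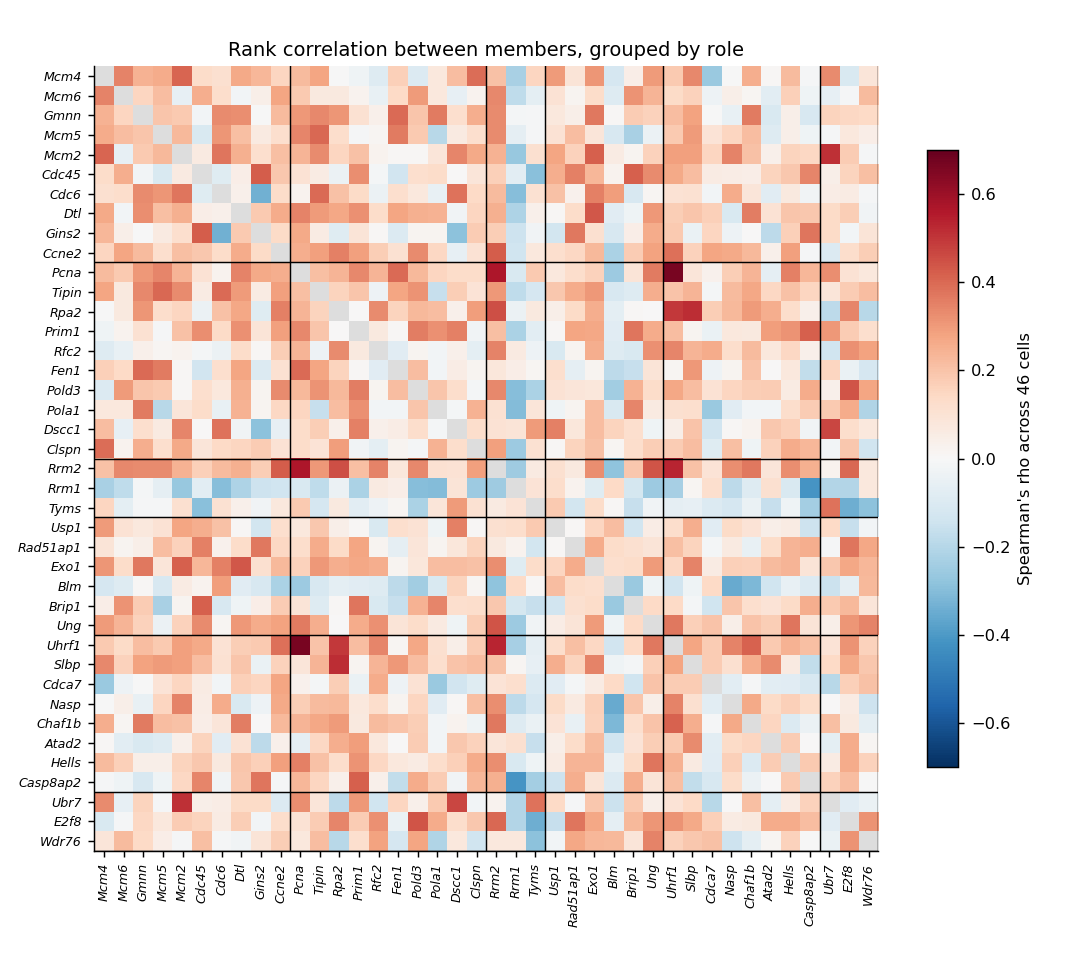
Rank correlation of every pair of the 40 genes across 46 cells, blue for negative and red for positive rho, with lines between the 6 roles. Red is spread over all roles, the darkest square is Pcna with Uhrf1 at 0.67, and the row of Rrm1 is largely blue.

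The 5 highest pairs joined genes of different roles, as do most of the 780 pairs. Pcna and Uhrf1 had a rho of 0.67, Pcna and Rrm2 0.57, Rrm2 and Uhrf1 0.53, Rpa2 and Slbp 0.52, and Mcm2 and Ubr7 0.51. The 4 cells highest in Pcna, at 757.289, 829.606, 894.391 and 1215.333 CPM, had 1312.163, 979.732, 1453.575 and 1362.901 CPM of Uhrf1. Of the 4 lowest in Pcna, at 0, 7.165, 9.093 and 11.215 CPM, the Uhrf1 values were 173.692, 133.744, 922.577 and 42.271 CPM. The ends overlapped in no value, although 1 cell low in Pcna came close with 922.577 CPM. Pcna, Rrm2, Rpa2 and Uhrf1 were joined by 5 of the 6 pairs among them at 0.45 or more.

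Subunits of one complex did not form the closest pairs. Mcm2 and Mcm4 reached 0.41, but the pair Mcm2 and Mcm6 was at -0.06, and Mcm4 and Mcm6 at 0.35. Mcm5 had 0.23 with Mcm2, 0.26 with Mcm4 and 0.21 with Mcm6. All of these but Mcm2 with Mcm6 were above 0.12, the median over all pairs of the set. Pairs with Mcm3 or Mcm7, outside the set, ran from -0.16 to 0.34. Cdc45 and Gins2, which enter the helicase together, had a rho of 0.42. Other pairs of related function were lower, with Gmnn and Cdc6 at 0.33, Pola1 and Prim1 at 0.32 and Tipin and Timeless at 0.14. Uhrf1 and Dnmt1 had 0.11, Tipin and Clspn 0.09, and Chaf1b and Chaf1a 0.06. Below 0 were Hells and Cdca7 at -0.08, Slbp and Casp8ap2 at -0.17 and Rrm1 and Rrm2 at -0.25. Within roles, 2 of 45 pairs of the helicase group and 1 of 28 of the chromatin group reached 0.4, and 0 of 45 at the fork. The mean rho was 0.16 within the helicase group and 0.12 to other roles, and 0.14 against 0.12 for the fork group.

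Against the sum of the other 39 genes, 11 genes (27.5%) had a rho of 0.4 or more, where 0.672% of all genes tested did with the sum of the 40. Uhrf1 led at 0.63, followed by Rrm2 at 0.61 and Pcna at 0.60. Ung at 0.51, Exo1 at 0.47, Ccne2 and Chaf1b at 0.45, Rpa2 at 0.42, Dtl and Slbp at 0.41 and Gmnn at 0.40 came next. Their median over all 40 was 0.26, and 37 were above 0. No gene reached -0.4, a level that 0.755% of all genes tested reached.

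Rrm1 stood on the other side of the set. Its rho with the sum of the other 39 was -0.39, with Blm at -0.24 and Tyms at -0.05 as the other 2 below 0. With DESeq2 size factors in place of edgeR's scaling the value of Rrm1 was -0.49, and without the 5 cells of lowest total count -0.53, both past -0.4. It was smaller with all 48 cells, at -0.32, with the mean of log2 values in place of the sum, at -0.29, and as Pearson's r of log2(CPM + 1), at -0.28. Rrm1 and Rrm2 had a rho of -0.25 with each other. The 4 cells lowest in Rrm1, at 2.432, 12.11, 21.427 and 32.002 CPM, had 17.025, 558.424, 288.153 and 626.322 CPM of Rrm2. The 4 highest, at 1423.832, 1539.309, 1571.679 and 3991.73 CPM, had 303.77, 1.478, 395.21 and 1377.658 CPM. So the ends overlapped in Rrm2. Rrm1 also made the only pair under -0.4, with Casp8ap2 at -0.41. Next lowest were Blm with Nasp at -0.35 and Tyms with E2f8 at -0.34. Rrm1 was the gene of the set with the highest rho with genes detected, 0.42. With genes detected held constant, its rho was -0.34 with the sum of the other 39 and -0.22 with Rrm2.

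**Figure D3:**
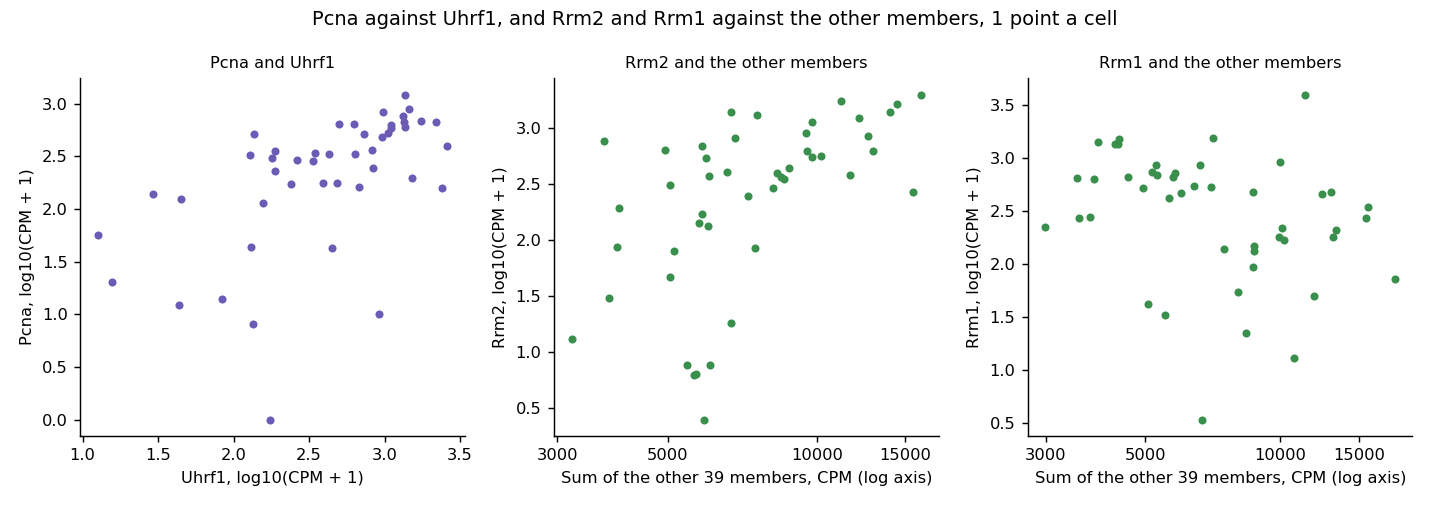
Each point is 1 of 46 cells: Pcna against Uhrf1, both as log10(CPM + 1), and Rrm2 and Rrm1 as log10(CPM + 1) against the sum of the other 39 genes in CPM on a log axis. Pcna and Rrm2 lie along an upward trend (rho 0.67 and 0.61), and Rrm1 along a shallow downward one (rho -0.39).

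The relation to the erythroid gene Gata1 was weak for nearly all replication genes. With Gata1 as CPM across the 46 cells (0 in the lowest, 70.3 in the median and 1722.2 in the highest), 1 of 40 genes had a rho of 0.4 or more (2.5%), against 1.78% of all genes tested. At -0.4 or less stood 0, against 2.16%. The share above 0.4 is near the background. The median rho was -0.08, beside 0.02 for all genes tested, and 27 of the 40 were below 0. The 1 gene was Blm at 0.41, whose rho was 0.37 with DESeq2 size factors and 0.39 with plain totals, under the limit. Blm had a median of 28.3 CPM in the 28 cells with Gata1 at 10 CPM or more and of 1.442 CPM in the 18 cells under it. Lowest were Rrm2 at -0.36 and Gins2 at -0.33.

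In the 28 cells with Gata1 at 10 CPM or more the summed level of the 40 genes was 3217.0 to 16067.2 CPM, with a median of 6567.8. In the 18 cells under 10 CPM it was 3831.9 to 18143.9 CPM, with a median of 8261.5. The 2 ranges overlapped over nearly their whole length, and the rho of the sum with Gata1 was -0.16. It was -0.27 with DESeq2 size factors. Taken gene by gene as mean log2(CPM + 1), 12 of 40 genes (30.0%) were higher in the cells with Gata1, against 54.5% of all genes tested. The median difference was -0.43 on the log2 scale, beside 0.10 for all genes tested. With all 48 cells the count was 21 of 40. Rrm2, the gene of the lowest rho, had medians of 254.4 CPM in cells with Gata1 and 654.2 CPM in cells under the limit. Rpa2 had 32.52 CPM with Gata1 and 209.3 CPM under the limit, and Cdca7 110.2 CPM with Gata1 and 254.7 CPM under it. The order was the opposite for Usp1, with 57.66 CPM in cells with Gata1 and 34.96 CPM in the others, and for Wdr76, with 52.41 CPM in cells with Gata1 and 24.3 CPM in the others. Total counts moved with the split as well, at a median of 2074378.0 in the cells with Gata1 and 1659078.0 in the others. With every cell thinned to 246007 counts, 13 of 40 genes were higher in the cells with Gata1.

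Relations to Mpo were weak too. Gata1 and Mpo had a rho of -0.61 with each other, so the 2 comparisons are not independent. Of the 40 genes 0 had a rho of 0.4 or more with Mpo, against 3.61% of all genes tested, and 0 had -0.4 or less, against 1.54%. Values ran from -0.20 for Tipin to 0.30 for Gins2 and Cdca7, with a median of 0.09 beside 0.00 for all genes tested. In the 18 cells with Mpo at 1000 CPM or more the summed level was 3831.9 to 18143.9 CPM, with a median of 7873.4. In the 28 cells under the limit it was 3217.0 to 16067.2 CPM, with a median of 6851.3, and the rho was 0.10. With the mean of log2 values in place of the sum it was 0.20. As mean log2 values 26 of 40 genes (65.0%) were higher in the cells with Mpo, against 46.5% of all genes tested, with a median difference of 0.29 on the log2 scale beside -0.08. Cdca7 had a median of 258.2 CPM with Mpo and 95.3 CPM under the limit, and Gins2 68.12 CPM with Mpo and 10.26 CPM under it. Tipin was the other way round, with 159.5 CPM with Mpo and 388.6 CPM under the limit. Passing both limits were 2 cells, and passing neither 2, so both splits part nearly the same cells.

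**Figure D4:**
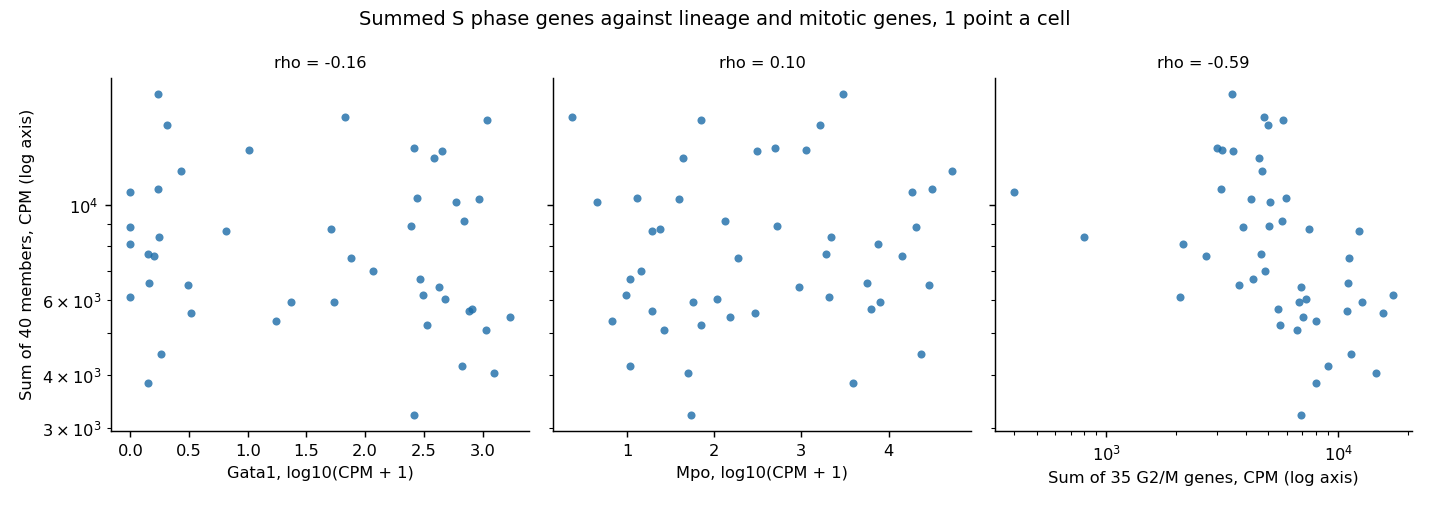
Summed level of the 40 genes in CPM on a log axis against Gata1, Mpo (both log10(CPM + 1)) and the sum of 35 G2/M genes in CPM on a log axis, with 1 point for each of 46 cells. The points form no trend with Gata1 or Mpo (rho -0.16 and 0.10) and fall with the G2/M sum (rho -0.59).

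The relation of the summed set to genes of the next cell cycle phases was of larger size than those to Gata1 and Mpo. The G2/M list held 35 genes of mitosis such as Ccnb1, Plk1 and Mki67, whose summed level was 397.6 CPM in the lowest cell, 5574.9 in the median cell and 17320.9 in the highest. The summed replication genes had a rho of -0.59 with it. The cell with the highest G2/M sum, 17320.9 CPM, held 6154.7 CPM of the replication genes, and the cell with the lowest, 397.6 CPM, held 10741.9 CPM. The 6 cells highest in the replication genes held 2987.0 to 5802.7 CPM of the G2/M genes. Both sums are parts of the same library. With the replication genes as a mean of log2 values and the G2/M genes kept as a sum, the rho was -0.43. With mean log2 values in place of sums it was -0.28, which ends the call at -0.4, and with sums of ranks -0.43.

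Gene by gene, 34 of 40 had a rho below 0 with the G2/M sum, with a median of -0.20 beside 0.04 for all genes tested. At -0.4 or less were 4 (10.0%), against 0.672% of all genes tested, and these were Ung at -0.57, Mcm4 at -0.53, Mcm6 at -0.49 and Ccne2 at -0.46. By Pearson's r of log2(CPM + 1) 2 genes were at -0.4 or less. Ung and Ccne2 are the low genes described above, with reads in 25 and 20 cells. At 0.4 or more stood 1 gene (2.5%), against 1.72%, and it was Rrm1 at 0.45. With the number of genes detected held constant none reached 0.4.

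By role, the summed helicase genes had the rho of largest size with the G2/M sum, -0.63. Summed chromatin genes had -0.45, repair genes -0.38, fork genes -0.31 and the 3 genes of no other role -0.15. The summed nucleotide supply genes had -0.03. Taken singly, Rrm2 was at -0.38, Tyms at -0.01 and Rrm1 at 0.45. Roles differ in their number of genes, and the role sums were not recomputed under other settings. Gene by gene the roles lay closer, with medians of -0.27 for helicase, -0.20 for fork, -0.18 for chromatin and -0.13 for repair genes. Within the 28 cells with Gata1 at 10 CPM or more the rho of the 2 sums was -0.62, and within the 18 under it -0.28. Within the 18 cells with Mpo at 1000 CPM or more it was -0.43, and within the 28 under it -0.61. The difference between these sets of cells was not tested. The G2/M sum itself had a rho of 0.36 with Gata1 and -0.42 with Mpo, and of 0.26 with total count and 0.36 with genes detected. With genes detected held constant the rho of the 2 sums was -0.58, and with every cell thinned to 246007 counts -0.59.

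**Figure D5:**
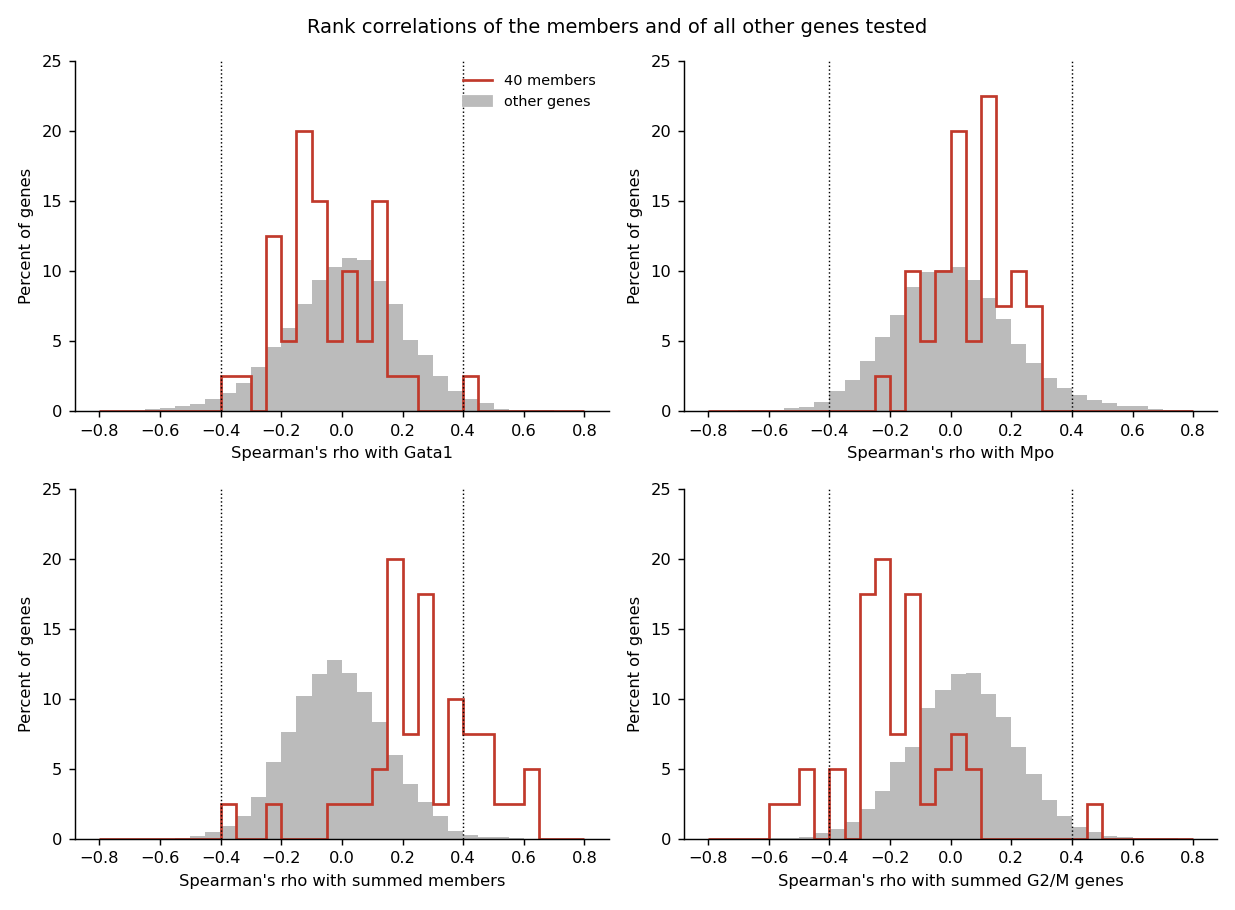
Percent of genes in bins of Spearman's rho, red for the 40 replication genes and grey for the other genes tested, with Gata1, Mpo, the summed replication genes (for each of the 40, the sum of the other 39) and the summed G2/M genes, and dotted lines at -0.4 and 0.4. The red outline lies near the grey one for Gata1 and Mpo, to its right for the summed replication genes (median 0.26 beside -0.02) and to its left for the G2/M sum (median -0.20 beside 0.04).

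Some other genes of DNA replication went with the 40. Of 61 such genes in the table, 60 passed the minimum. With the summed 40, 5 of them had a rho of 0.4 or more, against 0.672% of all genes tested. At -0.4 or less stood 0, against 0.755%, and the median was 0.13 beside -0.02. Mcm3, a helicase subunit outside the set, was at 0.55, with 4.864, 411.9 and 1506.7 CPM as lowest, median and highest. Mcm7, the other helicase subunit outside the set, was at 0.18. Wdhd1, an adaptor of polymerase alpha, was at 0.52 and Dut, which keeps uracil out of DNA, at 0.49. Prim2 and Ccne1, both at 0.41, were the remaining ones. Ticrr, an origin firing factor, at -0.29, Ccna2, cyclin A2, at -0.18 and Cenpu, a centromere gene, at -0.17 were lowest. Of the 5, Mcm3 had the rho of largest size with both lineage genes, -0.34 with Gata1 and 0.35 with Mpo. No other replication gene passed 0.4 or -0.4 with Gata1 or Mpo. Of all genes tested, 1.78% reached 0.4 and 2.16% reached -0.4 with Gata1, and 3.61% and 1.54% with Mpo. A count of 0 among 60 genes is near these shares.

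Outside the set, the genes most like it in level across the 46 cells were mixed in kind. Sbds, a ribosome maturation factor, had a rho of 0.60 with the summed 40 genes, Ywhaz, a 14-3-3 adaptor, 0.57 and Mcm3 0.55. Ola1 followed at 0.54, then Aacs, Ldha and Tonsl at 0.53, Cct2 and Wdhd1 at 0.52 and Sub1 at 0.51. Tonsl, a replication fork repair factor, was read in 15 cells and Aacs in 22, so their ranks rest on few cells. Lowest were the mitotic kinase gene Plk1 at -0.65, Ube2c, of the anaphase ubiquitin system, at -0.59, Aspm, a spindle pole gene, at -0.53, and Fyn and Laptm4a at -0.52. Plk1 had 0, 6.1 and 282.3 CPM as lowest, median and highest. Summed markers of 9 lineages had rho values with the summed 40 genes from -0.14 for erythroid to 0.13 for macrophage genes.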

How the data were processed

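Single mouse fetal liver cells labelled BFU-E were captured on a Fluidigm C1 chip whose chambers were inspected for a cell, and full-length cDNA was made with SMART-Seq and libraries with Nextera XT, per the labels' protocols. TopHat2 2.0.12, Subread with featureCounts 1.4.6 and mm10 are named in the submitters' processing notes, with the annotation not given in the sources used here. The authors deposited a table of whole-number counts per gene and cell, and a log2 table. The deposited log2 values equal log2(count / size factor + 1), with DESeq2's size factors, within 1e-06.

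From the counts, CPM were computed with TMM library sizes (edgeR 4.0.16, R 4.3.3). Spearman's rho (scipy 1.17.1, pandas 2.3.3, numpy 2.4.6, Python 3.11.15) was called at 0.4 or -0.4, and its share set beside that over 8482 genes read in 10 cells or more at an average of 5 CPM or more. Cells are not replicates, so edgeR's count test was not used and no p-value is given. Reads carry no molecular identifiers, and intervals cover counting error only. No doublet caller was run on 48 cells. Transcript lengths and positions are from GENCODE for GRCm38, and promoters from RefSeq on GRCm38.p6. The rank correlation and the thinning alone were tested on simulated counts, and figures were drawn with matplotlib 3.10.9.

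All 40 genes could be named. Values in full were given for the 2 highest and 2 lowest of each role per kilobase, for genes past the limit with Gata1 or Mpo, for the 5 highest and 3 lowest pairs, and outside the set for the 10 highest and 5 lowest genes by rho with the summed 40 and the 3 highest and lowest of the other replication list. Further genes were picked after their values were seen. The members and lists were chosen with earlier results of these data known.

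Alternatives were DESeq2 1.42.0 size factors, plain totals, all 48 cells, dropping the 5 cells with fewest counts, thinning to 246007 counts, Pearson's r of log2 values with a pseudocount of 1 or 10, the authors' log2 table, holding genes detected constant, and other limits.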

Additional observations from a re-analysis of the deposited data

Results flagged for a closer look

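The 2 cells left out for C1qb were in no comparison, yet they held reads of the replication genes. In the cell with 9739.7 CPM of C1qb, 22 of the 40 genes had more than 3 reads, the limit that a count of 0 allows, and in the cell with 8037.5 CPM 9 genes did. The first cell had 14 genes at 10 CPM or more and the other 6, where the lowest of the 46 cells had 16. The summed level was 6452.1 CPM in the first, inside the range of the 46 cells, and 1868.8 CPM in the other, below it. The first held 2580.8 CPM of Pold3 and the other 1111.8 CPM of Slbp, each above all 46 cells. Their G2/M sums were 15655.1 and 8244.4 CPM.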

How the results depend on the processing

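No paired analysis was possible because the cells form 1 group of 1 sample, and leaving out replicates does not apply. Of 287 recomputed values, 250 kept their direction and their side of the limit or, for counts, stayed within 1.5 times, and no called correlation changed sign. The authors' log2 table is scaled by DESeq2 size factors, so its rank correlations repeat that setting. The 287 values are therefore not all separate checks. The rho of the summed replication genes with the G2/M sum stayed between -0.64 and -0.45 over the other settings, except the sum of ranks at -0.43. It was -0.28 with mean log2 values in place of sums. With only the replication genes as mean log2 values it was -0.43. The sum of ranks and the mean of log2 values were chosen after seeing the data. The number of genes at 50 CPM in 50% of the cells was 22. Pairs at or above the limit were 34 with 48 cells, 100 at a limit of 0.3 and 5 at 0.5. With Gata1, genes at or above the limit were 0 with DESeq2 size factors, plain totals, the authors' log2 table or a limit of 0.5. Genes at or below minus the limit were 1 with DESeq2 size factors, without the 5 cells of lowest total count or in the authors' log2 table, and 2 at 0.3. Genes higher in cells with Gata1 were 21 of 40 with 48 cells, a majority, against 12 in the 46 cells. With Mpo, 2 genes passed 0.3. With the G2/M sum, genes at or above the limit were 0 with 48 cells, with genes detected held constant or at 0.5. Those at or below minus the limit were 2 and 1 by Pearson's r with a pseudocount of 1 and 10, 7 at 0.3 and 2 at 0.5. Other replication genes at or above the limit with the summed 40 were 2 with DESeq2 size factors and in the authors' log2 table, 3 by Pearson's r with a pseudocount of 10, 11 at 0.3 and 2 at 0.5. Limits act by their construction, and for the other settings the cause was not tested. Ung, Ccne2 and Dscc1 had medians of at most 0.4069 CPM, so their ranks hold many ties at 0.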
